A study of Mus musculus with 4 samples.

Results

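Genes of glycolytic enzymes and the beta-actin gene Actb often serve as references to which other transcripts are scaled. Their own behaviour was followed here in m6A-bound and unbound RNA of brown preadipocytes from control mice and from mice lacking EP3, a receptor for prostaglandin E2. The genes were Gpi1, Gapdh, Pgk1 and Actb, 4 of the 47 genes with a named probe on the array. They were taken by name: Gapdh and Pgk1 from control spots of the array, each gene with 1 mouse probe named 3 and 1 named 5, and Gpi1 and Actb from array probes whose accession belongs to the gene. This gave 6 member probes with 10 spots each, 60 spots of the 62976 on an array. The rule uses names and no measured values, but the genes were picked with earlier results of these data known.

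The study sorted brown preadipocytes, lineage-negative cells with CD29, CD34 and Sca1 on their surface, from male mice of 8 weeks. Control cells (CON) came from EP3F/F mice, which carry floxed EP3 alleles, and EP3 cKO cells from Myf5CreEP3F/F mice, which carry the same floxed alleles plus Cre under Myf5, a gene active in precursors of brown fat and skeletal muscle. Each genotype was 1 pool of approximately 30 mice on 1 array. RNA bound by an antibody against N6-methyladenosine (m6A) was labelled with Cy5 (IP) and the RNA left in the supernatant with Cy3 (Sup), so that 4 samples lay on 2 arrays. Floxed alleles were thus shared by both groups, and cells with Cre alone were not analysed here. The supernatant samples carry no sex in their labels.

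Glycolysis turns glucose into pyruvate in the cytosol. Gpi1 encodes glucose-6-phosphate isomerase, an early enzyme of the route. Gapdh encodes glyceraldehyde-3-phosphate dehydrogenase, and Pgk1 phosphoglycerate kinase, which acts directly after it and makes ATP. Actb encodes a cytoplasmic actin of the cell skeleton. m6A is a methyl mark on adenosine, common in mRNA near stop codons, that binding proteins read to change the stability and translation of a transcript. The ratio of bound to unbound RNA is used here as the m6A ratio, and whether it follows m6A content was not checked.

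With 1 array per genotype there is no biological replicate and no test. The SD given with a value is that of repeated spots of 1 probe on the same arrays, a technical spread, and n is the number of spots. The number of arrays limits the precision. Overlap of spots was not counted for other probes, so a lack of overlap speaks of spot precision only. Of the 60 member spots, 5 carried an outlier flag in some signal and 55 were used. Every used member spot was well above background in all signals, and 0 were saturated. Levels are log2 of the processed signal over the channel's median of 43838 usable array probes, and that median was between 411 and 474 in the 4 samples. A level also holds the affinity of its probe, so levels of different genes carry no order of RNA amounts. None of the 14 listed markers of preadipocytes had a named probe (a count of 0), so the cell type label was not checked, and the EP3 gene Ptger3 had none either.

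Gpi1 was among the brightest probes in every sample. Its mean processed signal on the control array was 120490 in IP and 67652 in Sup, and on the cKO array 122119 in IP and 75946 in Sup (n = 8 spots). It was brighter in IP than in Sup on both arrays, and no other member probe was. Its level lay above 97.5% to 98.9% of usable probes in the 4 samples.

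The Gapdh probe named 3 gave 30388 in IP and 80615 in Sup on the control array, and 37944 in IP and 79321 in Sup on the cKO array (n = 9 spots). The Gapdh probe named 5 gave 8283 in IP and 16977 in Sup on the control array, and 10984 in IP and 21425 in Sup on the cKO array (n = 9 spots). Both were brighter in Sup than in IP on both arrays. The spots of control IP and cKO IP did not overlap for either Gapdh probe.

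The Pgk1 probe named 3 gave 105711 in IP and 108992 in Sup on the control array, and 66785 in IP and 117514 in Sup on the cKO array (n = 10 spots). The Pgk1 probe named 5 gave 474 in IP and 623 in Sup on the control array, and 163 in IP and 524 in Sup on the cKO array (n = 9 spots). On both probes cKO IP was the lowest of the 4 samples, with no spot reaching those of the other samples. For the probe named 5 the used cKO IP spots ran from 128 to 188, against 440 to 516 in control IP, and its pixel median of 67 compared with 19 in the local background.

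The Actb probe gave 946 in IP and 1405 in Sup on the control array, and 1500 in IP and 1679 in Sup on the cKO array (n = 10 spots). Actb mRNA is abundant in most cells, yet this probe lay above only 64.9% of usable probes in control IP and 76.0% in cKO Sup. Both fractions were brighter in cKO, without overlap of the spots.

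**Figure D1:**
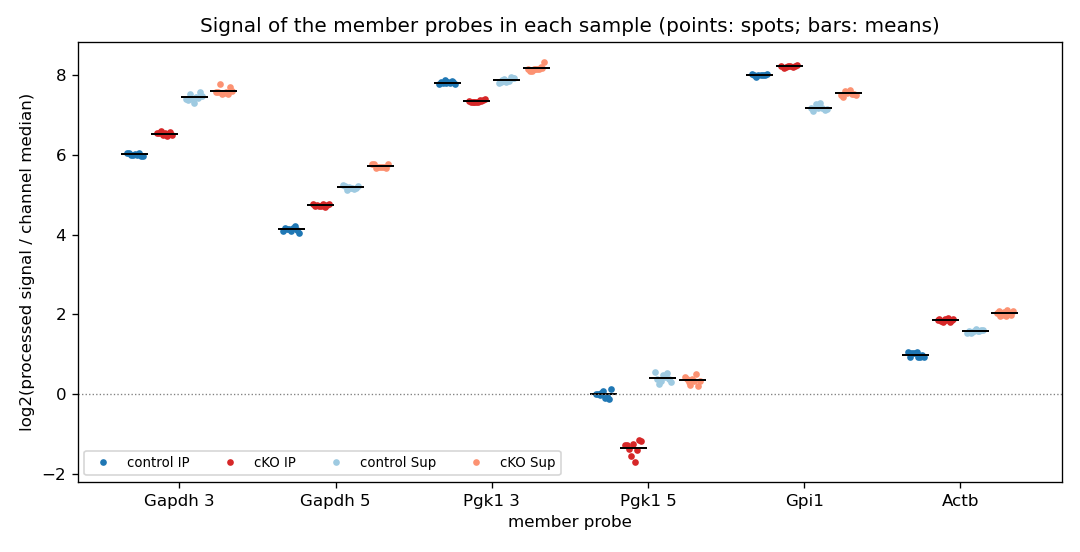
Level of each member probe in each sample, as log2 of the processed signal over the channel median (dotted line at 0), with spots as points and means as bars. Control IP and cKO IP move apart most for Pgk1 5, from 0.00 to -1.34.

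The first comparison asked how each transcript divided between bound and unbound RNA within the control cells. The m6A ratio of Gpi1, log2(IP/Sup), was 0.81 ± 0.08 (SD, n = 8 spots), above 78.7% of usable probes. The Pgk1 probes stood at -0.06 ± 0.05 (SD, n = 10 spots) for 3 and -0.41 ± 0.14 (SD, n = 9 spots) for 5. Actb stood at -0.59 ± 0.07 (SD, n = 10 spots). Gapdh was lowest, at -1.43 ± 0.10 (SD, n = 9 spots) for 3 and -1.05 ± 0.08 (SD, n = 9 spots) for 5, above 8.94% and 15.8% of usable probes. The median of all usable probes was -0.09, so that Gpi1 lay above it, Pgk1 3 near it and the others below. IP was always Cy5 and Sup always Cy3, and a ratio therefore also holds the dye bias of its probe.

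On the cKO array Gpi1 was again highest, at 0.68 ± 0.05 (SD, n = 8 spots). Actb stood at -0.17 ± 0.04 (SD, n = 10 spots). The Gapdh probes stood at -1.07 ± 0.07 (SD, n = 9 spots) and -0.97 ± 0.04 (SD, n = 9 spots), for 3 and 5. The Pgk1 probes stood at -0.82 ± 0.04 (SD, n = 10 spots) and -1.69 ± 0.20 (SD, n = 9 spots). Pgk1 5 moved from above 36.2% of usable probes to above 4.09%, below both Gapdh probes. With the probes of a gene averaged, Pgk1 lay 1.00 above Gapdh in control and 0.24 below it in cKO, in log2 units. Of these mouse probes only Pgk1 5 crossed: Pgk1 3, at -0.82, stayed above both Gapdh probes in cKO. Among the rat control probes described below, Pgk1 3 crossed too. It lay at -0.53 in control, above Gapdh 3 and 5 at -0.66 and -1.22, and at -1.33 in cKO, below their -0.57 and -0.88. The human Pgk1 3 probe, at -0.84 in cKO, stayed above human Gapdh 3 and 5 at -0.97 and -0.91.

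**Figure D2:**
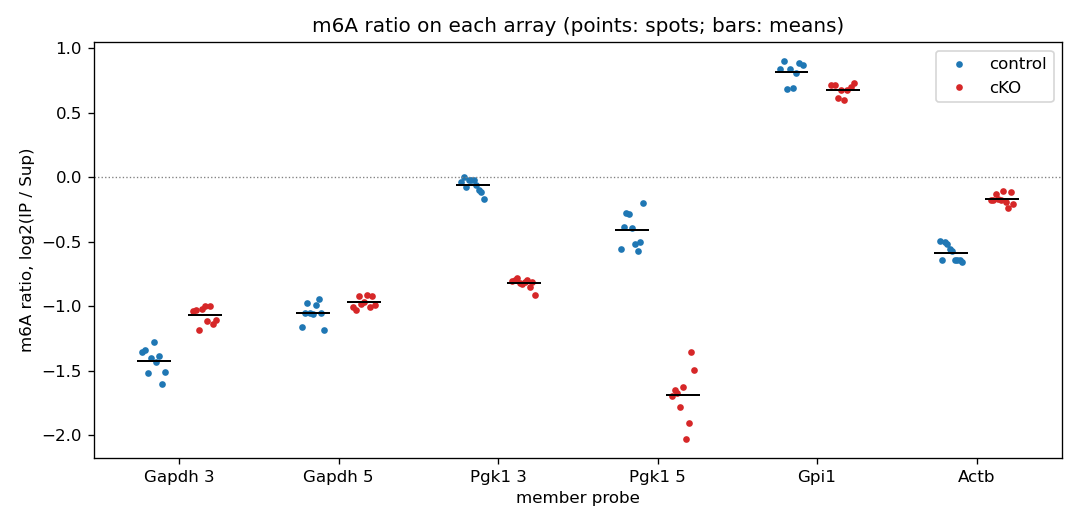
m6A ratio, log2(IP/Sup), of each member probe on the control and cKO arrays, with spots as points and means as bars. Gpi1 stays above 0 on both arrays, and both Pgk1 probes are lower in cKO, at -0.82 and -1.69.

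The main comparison asked how the m6A ratio differed between cKO and control. Pgk1 5 had an m6A difference, cKO minus control, of -1.28 ± 0.20 (SD, n = 9 spots), a ratio 2.43-fold lower. Its spots ran from -1.51 to -0.85, with 1.25% of usable probes below its mean. Pgk1 3 stood at -0.76 ± 0.04 (SD, n = 10 spots), 1.69-fold lower, with 6.90% of usable probes below it. Gpi1 stood at -0.14 ± 0.04 (SD, n = 8 spots), a small difference with all spots below 0.

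Actb had the highest difference, 0.42 ± 0.06 (SD, n = 10 spots), with every spot above 0. Gapdh 3 stood at 0.35 ± 0.06 (SD, n = 9 spots) and Gapdh 5 at 0.08 ± 0.08 (SD, n = 9 spots), the latter with 8 of 9 spots above 0. In all, 3 of the 6 probes lay above 0, against 54.0% of all usable probes. A difference of at least 2-fold was reached by 1 member probe, Pgk1 5, against 5.28% of all usable probes (3.29% lower in cKO). At 1.5-fold it was reached by both Pgk1 probes and no other member, against 22.7%.

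The signs near 0 rested on the scaling of the channels and on the signal measure. With pixel medians minus local background Gapdh 5 lay at -0.0030. With normexp alone, a background correction with an offset of 50, Gapdh 3 lay at -0.0046 and Gapdh 5 at -0.27. Gpi1 lay at 0.17 with normexp, loess and Aquantile. In the authors' deposited table, where the median m6A difference of usable probes was -0.44 rather than the 0.04 found with median scaling, all 6 probes lay below 0, with Actb at -0.06, Gapdh 3 at -0.13 and Gapdh 5 at -0.39. Differences between members do not depend on a constant per channel and are given next.

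Of the 15 pairs of member probes, 14 had m6A differences with no overlap of their spots. The exception was Gapdh 3 with Actb, which differed by -0.06 ± 0.09 (combined SD). Over all usable probes the m6A difference had an SD of 0.50, and overlap was not counted for pairs of other probes. The count of pairs therefore does not set the members apart from other probes. With median scaling Actb and Pgk1 5 stood furthest apart, by 1.70 on the log2 scale or 3.25-fold. With normexp alone the furthest pair was Actb and Pgk1 3, by 1.28, and with normexp, loess and Aquantile it was Gapdh 3 and Pgk1 5, by 1.27. Averaged over its probes, Gapdh lay 1.24 ± 0.11 (combined SD) above Pgk1, 2.36-fold. Gpi1 lay 0.62 ± 0.06 above Pgk1 3 and 0.49 ± 0.07 below Gapdh 3 (combined SDs). These SDs cover the noise of repeated spots of 1 probe only, and designs for the same gene can differ by more: those for Gapdh 3 ran from 0.01 on a human design to 0.35 on the mouse one. With normexp, loess and Aquantile Gpi1 lay above Gapdh 5, so the order of Gpi1 and Gapdh is not settled here. Under all 15 settings of background correction, scaling and spot use, the lowest 2 members were both Pgk1 probes. A setting that only adds a constant per channel could not change this order. Those that could were pixel medians minus background, normexp alone, normexp with loess and Aquantile, the settings of spot use, and the authors' deposited table. Gapdh minus Pgk1 was smallest with normexp alone, 0.78, a background correction with no dye normalisation and an added offset of 50. The normexp setting with loess and Aquantile gave 0.92, and there Gpi1 itself stood at 0.17 and Gapdh 5 at 0.10.

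The members were set beside probes of like brightness, within 0.5 log2 of their mean level. Among the 502 like-bright probes of Pgk1 3 the median m6A difference was 0.19, and 2.19% lay below Pgk1 3. Among the 7852 of Pgk1 5 the median was 0.01, and 1.53% lay below Pgk1 5. Gapdh 3 lay above 70.2% of its 620 like-bright probes, whose median was 0.18. Gapdh 5 lay above 48.9% of 1332, Actb above 78.4% of 4733 and Gpi1 above 18.0% of 499. With median scaling the brightest probes were thus somewhat higher in cKO as a class, and Gapdh and Actb lay within the range of 5% to 95% of probes like them.

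The arrays also carried control probes named for rat and human Gapdh and Pgk1, again named 3 and 5 with 10 spots each. These other designs met the same mouse RNA, but which transcripts they bind was not checked. For Pgk1 3 the m6A difference was -0.79 ± 0.07 (SD, n = 10 spots) on the rat probe and -0.83 ± 0.04 (SD, n = 9 spots) on the human probe, beside -0.76 on the mouse probe. For Pgk1 5 it was -1.22 ± 0.17 (SD, n = 9 spots) on the rat probe and -1.29 ± 0.22 (SD, n = 8 spots) on the human probe, beside -1.28. With the processed signals the 3 designs thus differed by less than the spot SD at the 5 name and by 0.07 at most at the 3 name. They did so over a wide range of brightness: in control IP the signal was 105711 on mouse Pgk1 3, 46164 on human Pgk1 3 and 834 on rat Pgk1 3. The designs were less alike under other settings. With normexp alone Pgk1 5 was -0.72 on the mouse, -0.63 on the rat and -0.17 on the human probe, and Pgk1 3 was -1.13, -0.73 and -1.28. With normexp, loess and Aquantile Pgk1 5 was -0.71, -0.66 and -0.37, and Pgk1 3 was -0.46, -0.61 and -0.72, in the same order. The human Pgk1 5 probe was well above background in 5 of its 8 used spots in cKO IP, the dimmest signal of the set at 55.3. Rat and human Pgk1 probes lay below 0 in all 15 settings. Probe sequences were not used here, so it is not known whether the designs share bases.

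For Gapdh the designs were less alike. The m6A difference at the 3 name was 0.35 on the mouse, 0.10 ± 0.07 (SD, n = 10 spots) on the rat and 0.01 ± 0.05 (SD, n = 9 spots) on the human probe. At the 5 name it was 0.08 on the mouse, 0.34 ± 0.05 (SD, n = 8 spots) on the rat and 0.31 ± 0.15 (SD, n = 10 spots) on the human probe. All 4 rat and human Gapdh probes lay above 0 with median scaling, though 2 to 8 of the 15 settings placed each of them below it. The mouse design put the 3 probe above the 5 probe, and the rat and human designs put it below. The Gapdh gene has many processed pseudogenes and Actb a close paralog in Actg1, and signal from such copies was not separated here.

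**Figure D3:**
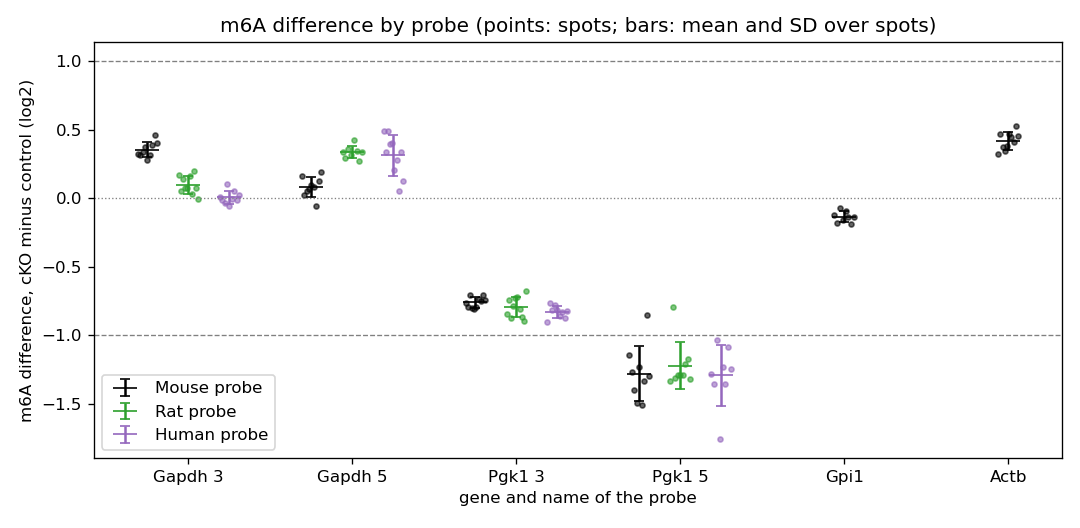
m6A difference, cKO minus control, for mouse, rat and human designs of each probe, with spots as points and bars for mean and SD over spots; dashed lines mark 2-fold. With the processed signals the 3 Pgk1 designs overlap at each name, between -0.83 and -0.76 for 3 and between -1.29 and -1.22 for 5.

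The probes named 3 and 5 were compared within each gene. On arrays such names commonly stand for the transcript ends a probe reads, which the files do not state. A single gap between probes holds their affinities. Its change between arrays holds no scaling constant, and it is free of affinity only where signal is proportional to RNA. That was not checked, and the change moved with the background correction, as given below. In IP the mouse Pgk1 gap, 3 minus 5, widened by 0.88 ± 0.18 (combined SD) from control to cKO, and in Sup by 0.36 ± 0.09. The rat Pgk1 gap widened by 0.83 ± 0.19 in IP and 0.40 ± 0.12 in Sup, and the human one by 0.74 ± 0.15 and 0.28 ± 0.12 (combined SDs). Pgk1 signal at the 5 name was therefore lower relative to the 3 name in cKO on every design and in both fractions, more so in IP, with the processed signals. On the mouse design the IP value was only 0.017 with normexp alone and 0.11 with normexp, loess and Aquantile, and the Sup value was 0.43 and -0.14 under these settings. A larger change in IP than in Sup did not hold on any design with normexp alone. There the m6A difference at 3 lay below that at 5: -1.13 and -0.72 on mouse, -0.73 and -0.63 on rat, -1.28 and -0.17 on human. With normexp, loess and Aquantile it also failed on human, at -0.72 and -0.37, but held on rat, at -0.61 and -0.66, and on mouse.

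The Gapdh gap did not do so. Its change in IP was -0.09 ± 0.08 on the mouse, -0.23 ± 0.08 on the rat and -0.11 ± 0.13 on the human design (combined SDs). In Sup it was -0.36 ± 0.06 on the mouse, 0.00 ± 0.07 on the rat and 0.19 ± 0.09 on the human design, with no common direction. In terms of the m6A difference, the 3 probe exceeded the 5 probe by 0.52 ± 0.20 for Pgk1 and 0.27 ± 0.09 for Gapdh on the mouse designs (combined SDs). The Pgk1 value turned to -0.42 with normexp alone and was 0.25 with normexp, loess and Aquantile. The offset of 50 in both is close to the background-subtracted signal of Pgk1 5 in cKO IP, 44.2, and its part in these values was not tested. RNA integrity was not measured in the files, and its part in the Pgk1 gap was not tested.

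**Figure D4:**
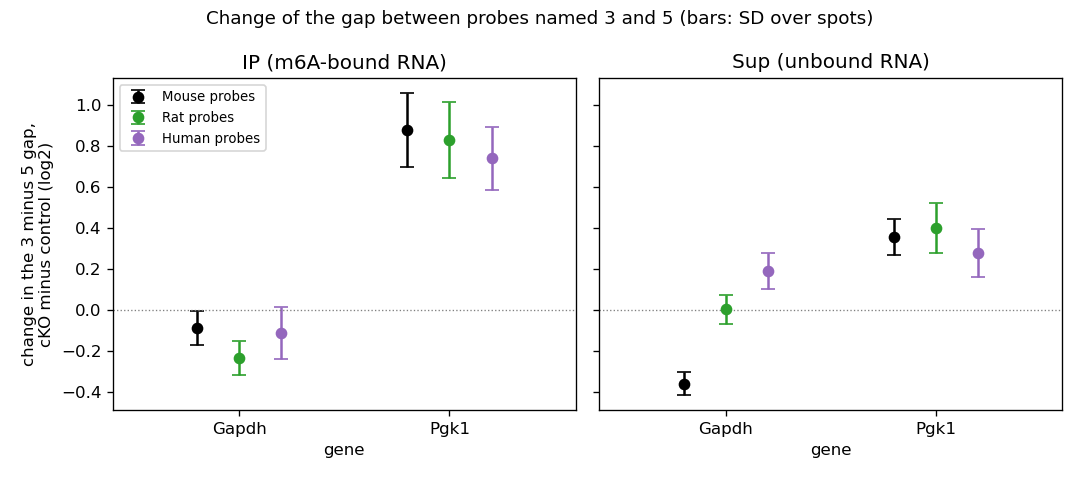
Change from control to cKO of the gap between probes named 3 and 5, in IP and Sup, for mouse, rat and human designs; points are differences of means and bars the combined SD over spots. Pgk1 lies above 0 in each case, from 0.74 to 0.88 in IP and from 0.28 to 0.40 in Sup with the processed signals; with normexp, loess and Aquantile the mouse values are 0.11 in IP and -0.14 in Sup.

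A lower ratio can come from less bound or more unbound RNA. For Pgk1 3 the IP signal differed by -0.46 ± 0.05 (SD, n = 10 spots) and the Sup signal by 0.30 ± 0.04 (SD, n = 10 spots). For Pgk1 5 the IP signal differed by -1.34 ± 0.17 (SD, n = 9 spots), 2.54-fold, while Sup stood at -0.06 ± 0.08 (SD, n = 9 spots), within its spot spread. For Actb both fractions were higher in cKO, IP by 0.86 ± 0.07 (SD, n = 10 spots) and Sup by 0.44 ± 0.06 (SD, n = 10 spots). Gapdh 3 was higher by 0.52 in IP and 0.16 in Sup, and Gapdh 5 by 0.61 in IP and 0.52 in Sup. Gpi1 was higher by 0.22 in IP and 0.35 in Sup. In Sup 5 of the 6 probes lay above 0, against 54.7% of all usable probes, and in IP 4 of 6, against 57.4%. These signs rest on the scaling and the signal measure too. In the authors' deposited table the IP difference was -0.30 for Gpi1, 0.0026 for Gapdh 3 and 0.098 for Gapdh 5. There 3 of 6 probes lay above 0 in IP. With normexp, loess and Aquantile 2 of 6 lay above 0 in Sup. The IP difference of both Pgk1 probes was below 0, and that of Actb above 0, in all 15 settings, though for Actb by as little as 0.0022 with E1A scaling.

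The next comparison asked whether total signal of the members differed, taken as the log2 sum of IP and Sup, each scaled to its own median. Fewer cells with a transcript and less of it per cell cannot be told apart in such bulk RNA. Actb was 1.54-fold higher in cKO, a difference of 0.63 ± 0.06 (SD, n = 10 spots) with 95.3% of usable probes below it. Gapdh 5 stood at 0.55 ± 0.02 (SD, n = 9 spots) and Gapdh 3 at 0.27 ± 0.04 (SD, n = 9 spots). Gpi1 stood at 0.27 ± 0.02 (SD, n = 8 spots). Pgk1 3 stood at -0.03 ± 0.05 (SD, n = 10 spots), within its spot spread, and Pgk1 5 at -0.48 ± 0.06 (SD, n = 9 spots).

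In abundance 4 of the 6 probes lay above 0, against 56.3% of all usable probes, and 0 reached 2-fold, against 3.60%. With median scaling only Actb reached 1.5-fold, against 12.4%. Actb fell short of 1.5-fold in other settings, at 0.51 with normexp, loess and Aquantile, 0.39 in the authors' deposited table and 0.11 with E1A scaling. Pgk1 5 was past 1.5-fold lower in some, at -0.67 unscaled and -0.87 with ERCC scaling. Gpi1 and Gapdh 3 could not be told apart by their spots, nor could Gapdh 5 and Actb, and the other 13 of 15 pairs had no overlap. That count too was not made for pairs of other probes, and the SD over all usable probes was 0.44. The probes of like brightness had a median of 0.29 for Gpi1 and 0.26 for Gapdh 3, about the values of these members. Actb lay above 95.3% and Gapdh 5 above 85.7% of their like-bright probes, while Pgk1 3 lay above 6.37% of its own. Actb, Gapdh 5 and both Pgk1 probes kept their sign in all 15 settings. Gpi1 and Gapdh 3 each turned below 0 in 2 of them.

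Because such genes serve as references, each was used in turn in place of the channel medians, dividing each channel by its signal at that probe. The median m6A difference of all 43838 usable probes, 0.04 with the channel medians, became -0.04 with Gapdh 5, 0.18 with Gpi1, -0.31 with Gapdh 3, -0.38 with Actb, 0.80 with Pgk1 3 and 1.32 with Pgk1 5. Probes at least 2-fold apart numbered 2315 with the channel medians, of which 37.7% were higher in cKO. That share was itself 49.6% with normexp, loess and Aquantile, 13.7% with normexp alone, 8.66% with scaling to SPINKEIN control probes, 1.90% in the authors' deposited table and 0.93% with scaling to E1A spike-in probes. With Gpi1 they numbered 2442, of which 63.7% were higher, and with Gapdh 5 2476, of which 24.4% were higher. With Gapdh 3 there were 4361, of which 4.22% were higher, and with Actb 5171, of which 2.67% were higher. With Pgk1 3 the count was 14578 and 99.5% of these were higher. With Pgk1 5 it was 33102, or 75.5% of all usable probes. The direction of most calls thus depended on which member served as reference. This restates the m6A differences of the members, as each reference shifts every probe by its own difference.

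In abundance the choice moved the calls in another order. Probes at least 2-fold apart numbered 1577 with the channel medians, of which 48.1% were higher in cKO, 1593 with Pgk1 3, of which 75.5% were higher, and 1935 with Gpi1, of which 20.1% were higher. They numbered 4505 with Gapdh 3, 6144 with Gapdh 5 and 7722 with Actb, of which 9.08%, 4.96% and 2.75% were higher in cKO. Pgk1 5 gave 18544, of which 99.7% were higher. Pgk1 3, near the channel medians in abundance, was far from them in the m6A ratio, and Gapdh 5 the reverse. Gpi1 alone stayed within 1.5 times the channel medians' count in both measures, though with another share of higher calls in each. Without any member as reference, the abundance count ran from 748 with normexp, loess and Aquantile to 5091 with E1A scaling.

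**Figure D5:**
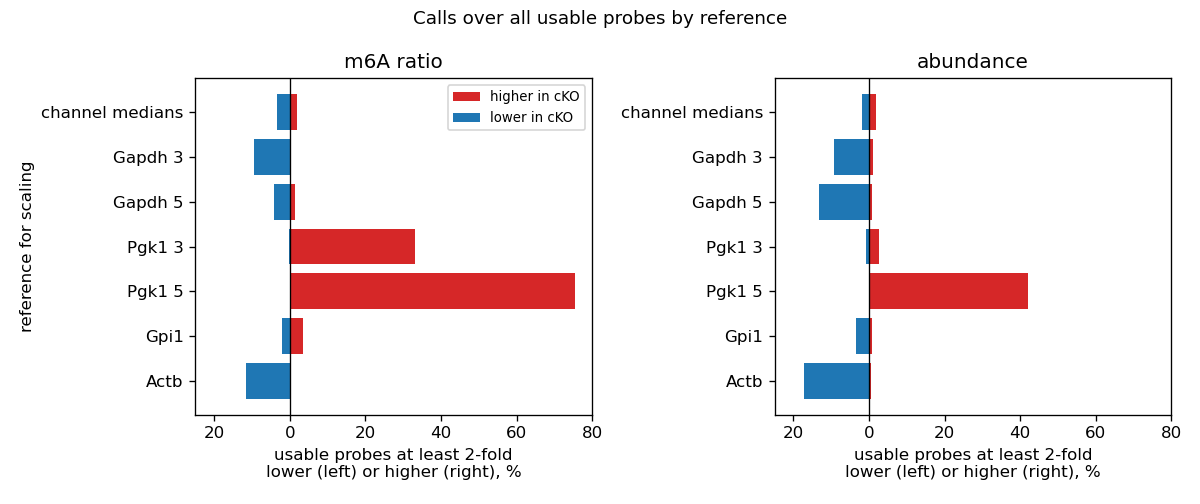
Share of the 43838 usable probes at least 2-fold lower (left of 0) or higher (right) in cKO, for the m6A ratio and for abundance, with each channel scaled to its median or to 1 member probe. For the m6A ratio, scaling to Actb or Gapdh 3 leaves nearly all calls lower, and scaling to either Pgk1 probe nearly all higher, 99.5% for Pgk1 3.

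Named array probes with a like profile over the 4 samples were sought among 39 usable named genes, by the mean absolute difference of levels after each profile was centred on its mean. Gpi1 was nearest to H2-Q7, a class I histocompatibility gene (0.10), and Hyal3, a hyaluronidase gene (0.11). Gapdh 3 was nearest to the peroxiredoxin gene Prdx2 (0.14) and Gapdh 5 to Pex11a, a gene of peroxisome division (0.15). Actb was nearest to Spats1 (0.14) and to the transcription factor gene Lhx1 (0.18). Pgk1 3 was nearest to Duox1, which encodes a dual oxidase (0.13). Pgk1 5 was nearest to Cav2, the caveolin-2 gene (0.32), a looser likeness than for the other members. Cav2 had an m6A difference of -1.45 and an abundance difference of -1.15, beside -1.28 and -0.48 for Pgk1 5. A near profile did not always mean a like m6A difference. H2-Q7 had -0.55 beside -0.14 for Gpi1, Pex11a 0.57 beside 0.08 for Gapdh 5, and Duox1 -0.25 beside -0.76 for Pgk1 3. Lhx1 had 0.16 beside 0.42 for Actb. Closer were Hyal3 at -0.13, Spats1 at 0.39, and Prdx2 at 0.24 beside 0.35 for Gapdh 3.

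Of 22 genes listed for glycolysis and transport of its substrates, Gpi1, Gapdh and Pgk1 had a named probe, 3 in all. Past 2-fold in the m6A ratio was 1 probe of Pgk1, the dim Pgk1 5, against 5.28% of all usable probes. With normexp, loess and Aquantile 0 member probes were past 2-fold. None of 9 genes of the pentose phosphate route and gluconeogenesis had a named probe (a count of 0). Of 18 common reference genes 3 were measured, Actb, Gapdh and Pgk1, and of 10 actin and actin-binding genes 1, Actb. The listed markers of mature brown fat, immune, endothelial, muscle and red cells had 0 named probes, and of 4 Schwann cell markers 1 had one.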

How the data were processed

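Per the labels and file headers, each array was read with Agilent Feature Extraction 11.0.1.1. The deposited processed signal is an intensity on a linear scale, background-subtracted and dye-normalised by the authors' scanner software; pixel medians and flags, scored 0 or 1 for each spot, were also deposited. The authors' deposited table holds log2 values of 48973 probes. Apart from the member probes, it follows log2 processed signal minus 1 constant per column (11.92, 12.23, 11.51 and 11.36 for control IP, cKO IP, control Sup and cKO Sup). For the members, which have repeated spots, this held only roughly: the spread of their m6A differences was 1.62 there and 1.70 with median scaling. Neither labels nor headers say what the constants were taken from. Sample columns without a mapped sample numbered 0.

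Spots with a feature outlier flag in any signal were left out. A probe was usable when at least 0.5 of its spots were unflagged and well above background in all 4 signals, which 43838 of 60691 were (72.2%). Log2 signals were averaged over spots and scaled to each channel's median. A 2-fold size rule, with no test, made the calls. Accessions of 45 of 50 probes matched a symbol in RefSeq (GRCm38.p6); coordinates are not given because the headers name another build. Named genes were all members and, for each, the named probes of closest profile. Members and lists were chosen with earlier results of these data known. Normexp, loess and Aquantile were run on pixel medians with limma 3.58.1 (R 4.3.3); the rest used Python 3.11.15, numpy 2.4.6 and pandas 2.3.3. The calculation was tested on simulated data that held only the noise of repeated spots. That test cannot speak to variation between arrays, pools or dyes.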

Additional observations from a re-analysis of the deposited data

How the results depend on the processing

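The results were recomputed under 14 alternatives to the median-scaled processed signals, 2 of them (scaling to E1A spike-in probes, and leaving out background outlier flags) chosen after seeing the data. No paired analysis was possible because each group has 1 sample, and for the same reason no sample could be left out. The count of 3 members with a higher m6A ratio became 1 with normexp, 0 in the authors' table and 0 with E1A scaling. The count of 4 with higher abundance became 2 with E1A scaling. The 4 members higher in IP became 1 with E1A scaling, and the 5 higher in Sup became 2 with loess and Aquantile. The 1 member past 2-fold became 0 with normexp, loess and Aquantile, and 2 with SPINKEIN scaling, with E1A scaling, in the authors' table and under a 1.5-fold rule. The Gapdh gap change in the m6A ratio, 0.27, was 0.45 with loess and Aquantile; that of Pgk1, 0.52, was 0.25 there and -0.42 with normexp, the Pgk1 gap change in IP, 0.88, was 0.017 with normexp and 0.11 with loess and Aquantile, and that in Sup was -0.14 with loess and Aquantile. Gapdh minus Pgk1, 1.24, was 0.78 with normexp and 0.92 with loess and Aquantile. Signs turned as follows. Gapdh 5 in the m6A difference was -0.0030 with pixel medians minus background, -0.27 with normexp, -0.16 with SPINKEIN, -0.50 with E1A and -0.39 in the authors' table. Gapdh 3 was -0.0046 with normexp, -0.23 with E1A and -0.13 in the authors' table. Actb was -0.17 with E1A and -0.060 in the authors' table, and Gpi1 was 0.17 with loess and Aquantile. In abundance Gapdh 3 was -0.051 with loess and Aquantile and -0.17 with E1A, and Gpi1 was -0.00041 with SPINKEIN and -0.33 with E1A. The IP difference of Gpi1 was -0.014 with normexp, -0.12 with SPINKEIN, -0.046 with ERCC, -0.64 with E1A and -0.30 in the authors' table, and with E1A it was -0.34 for Gapdh 3 and -0.26 for Gapdh 5. The Sup difference of Gapdh 3 was -0.21 with loess and Aquantile, -0.023 unscaled, -0.054 with ERCC and -0.11 with E1A, and with loess and Aquantile it was -0.15 for Pgk1 3 and -0.10 for Gpi1. The 2315 probes past 2-fold became 1204 with normexp, 996 with loess and Aquantile, 7761 with E1A, 5947 in the authors' table, 9940 at 1.5-fold, 6525 with no filter on dim probes, 4361 scaled to Gapdh 3, 14578 to Pgk1 3, 33102 to Pgk1 5 and 5171 to Actb. The 1577 past 2-fold in abundance became 794 with normexp, 748 with loess and Aquantile, 2552 with SPINKEIN, 2680 with ERCC, 5091 with E1A, 4505 scaled to Gapdh 3, 6144 to Gapdh 5, 18544 to Pgk1 5 and 7722 to Actb. The median m6A difference of usable probes was -0.44 in the authors' table, -0.54 with E1A and -0.20 with SPINKEIN. For these changes the cause was not tested, beyond the constant per channel that a scaling adds and the genes or thresholds that a filter changes. The dimmest member signal, Pgk1 5 in cKO IP, was the least precise, with a spot SD of 0.18.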
